A study of Mus musculus with 6 samples.

Results

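The cytochrome P450 genes of families 4 and above were examined in regenerating mouse liver that was meant to lack the transcription factor Klf6 in hepatocytes. The members were all genes whose symbol places them in a family numbered 4 or higher and that had a probe set annotated to that gene alone. The rule left out pseudogenes and 1 gene of family 26. This gave 28 genes of 17097, read by 37 probe sets, and for each gene the brightest of its probe sets, by the mean of the 6 arrays, gave the value. RNA came from the liver left 12 h after a partial hepatectomy, an operation that took out 70% of the organ, in 3 C57Bl/6 mice with a hepatocyte-specific Klf6 knockout, labelled DeltaKlf6, and in 3 wildtype C57Bl/6 mice. All 6 animals had undergone the operation, so no liver without surgery is compared. Each library is 1 sample on 1 one-channel Affymetrix array. The Cre driver behind the knockout and the sex and age of the mice are not known here. All values below are RMA expression values on the log2 scale, and all differences are log2 values of DeltaKlf6 minus wildtype.

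P450 enzymes are haem proteins that insert 1 oxygen atom into their substrate. Families 1 to 3 act mainly on drugs and other foreign compounds, whereas the families described here act mainly on the body's own lipids. Family 4 enzymes oxidise the tail end of fatty acids and eicosanoids, and several Cyp4a genes are classical targets of the nuclear receptor Ppara in rodent liver. Cyp7a1, Cyp8b1, Cyp27a1, Cyp7b1 and Cyp39a1 turn cholesterol and its oxidised forms (oxysterols) into bile acids, Cyp51 works in cholesterol synthesis, and families 11, 17 and 21 make steroid hormones. Klf6 is a zinc-finger factor of a family that binds GC-rich and CACC boxes in DNA.

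The start-site regions of 4 members are printed to show both cases among lipid-pathway members with clear liver signal, 3 with a GC box and 1 without, since Klf factors are known for such boxes. They run from 250 bases before to 50 bases after the annotated start, 5′ to 3′ on the gene's strand, from RefSeq on build GRCm38.p6. Capitals mark GGGCGG or CCACCC on either strand. Cyp27a1 is at chr1:74713285-74713584 (plus strand), Cyp51 at chr5:4104648-4104947 (minus), Cyp4v3 at chr8:45333114-45333413 (minus) and Cyp8b1 at chr9:121916256-121916555 (minus).
Cyp27a1: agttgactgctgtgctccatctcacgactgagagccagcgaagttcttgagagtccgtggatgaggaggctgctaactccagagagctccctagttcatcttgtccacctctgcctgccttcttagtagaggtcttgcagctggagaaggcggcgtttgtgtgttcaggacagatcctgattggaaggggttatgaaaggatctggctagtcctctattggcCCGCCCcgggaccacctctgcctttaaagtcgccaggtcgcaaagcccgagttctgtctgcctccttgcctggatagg
Cyp51: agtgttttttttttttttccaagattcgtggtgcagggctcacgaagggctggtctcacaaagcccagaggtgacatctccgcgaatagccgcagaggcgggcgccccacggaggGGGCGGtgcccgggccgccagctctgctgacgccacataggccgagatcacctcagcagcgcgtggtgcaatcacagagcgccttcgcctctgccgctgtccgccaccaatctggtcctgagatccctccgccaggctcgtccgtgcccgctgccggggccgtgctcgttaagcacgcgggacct
Cyp4v3: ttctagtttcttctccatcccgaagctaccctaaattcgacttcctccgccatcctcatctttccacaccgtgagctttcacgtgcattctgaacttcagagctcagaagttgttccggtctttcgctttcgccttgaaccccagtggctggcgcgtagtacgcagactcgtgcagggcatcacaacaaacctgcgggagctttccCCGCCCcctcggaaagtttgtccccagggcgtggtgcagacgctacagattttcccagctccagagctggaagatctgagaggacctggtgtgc
Cyp8b1: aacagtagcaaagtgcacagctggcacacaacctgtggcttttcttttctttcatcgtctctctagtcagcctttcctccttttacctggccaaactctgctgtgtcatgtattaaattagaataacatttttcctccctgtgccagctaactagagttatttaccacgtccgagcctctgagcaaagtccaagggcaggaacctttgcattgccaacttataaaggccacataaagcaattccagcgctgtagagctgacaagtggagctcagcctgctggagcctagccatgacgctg
With the first base of the transcript as position 1, the GC box lies at -28 to -23 in Cyp27a1, at -44 to -39 in Cyp4v3 and at -135 to -130 in Cyp51, and the Cyp8b1 window holds neither box. Of 28 members 16 were in the table. Cyp17a1, Cyp4a10, Cyp4a12a, Cyp4a31, Cyp7a1, Cyp7b1 and Cyp39a1 were among those not in it, so their windows were not searched. The shares below therefore leave out several members with the largest differences or the highest signal. GGGCGG stood in the windows of 11 of the 16 (68.8%), against 38.2% of 27025 genes in the table. CCACCC stood in 6 of 16 (37.5%), against 34% of all genes. Both strands were searched. Of the 16 searched members, none held the Ppara direct repeat with 1 free base (in 0.0481% of all genes) or TTANGTAA (read by clock output factors, 2.72%). None of them held TCAAGGTCA (read by Nr5a2, 0.466%) or TCACNCCAC (a sterol response element, 1.44%) either. These are matches of letters in a short window and say nothing about binding.

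Klf6 itself was not lower in the DeltaKlf6 group, with differences of 0.13, 0.52 and 0.02 by its 3 probe sets. Its 3 probe sets read 5.81, 5.88 and 7.03 in the library labelled DeltaKlf6 1, above every wildtype library. In the same order, they read 2.82, 4.12 and 4.61 in DeltaKlf6 2 and 2.83, 3.74 and 3.15 in DeltaKlf6 3. Their wildtype ranges were 3.41 to 4.03, 3.73 to 4.44 and 4.43 to 5.20. DeltaKlf6 2 thus lay below wildtype only at 2.82, and DeltaKlf6 3 at 2.83 and 3.15. Whether these probe sets read the deleted exons is not known here, and each direction given below rests on the labels. Control probe sets also differed between arrays: the 3'-minus-5' signal of the Gapdh control was 3.47 in DeltaKlf6 1, 3.45 in DeltaKlf6 2 and 4.83 in DeltaKlf6 3, while wildtype arrays lay between 4.06 and 4.43. The actin control gave 5.05 in DeltaKlf6 3, inside the wildtype range of 4.86 to 5.39, while DeltaKlf6 1 (4.22) and DeltaKlf6 2 lay below that range. The upper quartile of all values was 5.08 in DeltaKlf6 3, against 5.50 to 5.63 in the other 5 arrays. Hybridization control probe sets averaged 11.22 in DeltaKlf6 3, against 9.86 to 10.34 in the other 5. Over all genes the DeltaKlf6 arrays correlated with each other at 0.946 to 0.964 and the wildtype arrays at 0.982 to 0.983. Arrays of different groups correlated at 0.964 to 0.981. The part of these differences in the results below was not tested. Hepatocyte markers were present in all 6 libraries, with Alb, the albumin gene, at 12.52 to 13.33 in DeltaKlf6 and 12.72 to 13.02 in wildtype.

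No member passed the test. Limma called 0 of 28 members at an adjusted p of 0.05, and 0 of 17097 genes (percent called 0). At an unadjusted p under 0.05 there was 1 member, Cyp17a1, lower in DeltaKlf6, beside 3.69% of all genes (2.48% lower and 1.21% higher). The groups did not overlap for 2 members (7.14%), Cyp17a1 and Cyp4x1, both lower, beside 9.32% of all genes (5.91% lower and 3.41% higher). Of the members 12 had a higher and 16 a lower mean in DeltaKlf6, with a median difference of -0.08, beside -0.01 over all genes, of which 51.6% were lower. For 18 members the 95% interval of the difference lay within 1 log2 unit on both sides of 0. For the other 10 it reached past 1, so these 3 livers per group do not exclude a 2-fold difference in them. The p-values measure the spread between these samples.

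Signal was low for several members. A gene is called dim where its probe set lay under the array's median (3.30 to 3.45) on all 6 arrays. This held for 8 members: Cyp4a31, Cyp4f18, Cyp4f39 and Cyp4x1 of the fatty acid enzymes, the brain cholesterol hydroxylase gene Cyp46a1, the aldosterone synthase gene Cyp11b2, the vitamin D activating enzyme gene Cyp27b1 and the orphan Cyp20a1. The array's own nonspecific control probe sets had medians of 2.27 to 2.50, and detection calls were not used here.

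**Figure D1:**
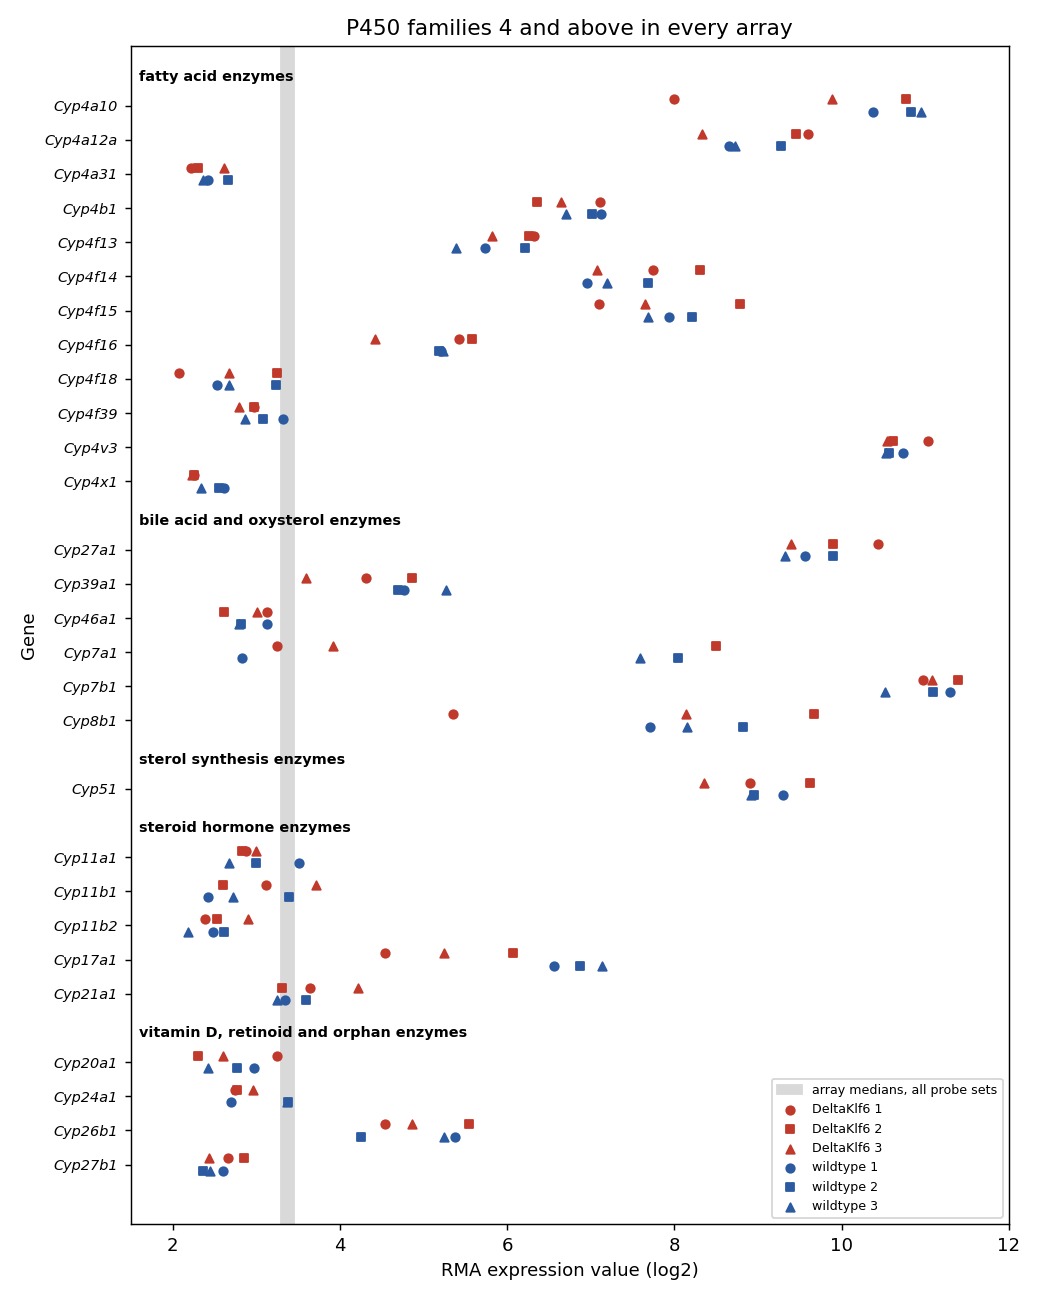
RMA expression value (log2, horizontal axis) of each of the 28 genes on each array, with DeltaKlf6 in red above wildtype in blue and 1 symbol per replicate number. The grey band spans the medians of all probe sets (3.30 to 3.45); Cyp7a1 spreads from 2.83 to 8.50, and Cyp17a1 shows 3 DeltaKlf6 values, all below the 3 wildtype values.

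Steroid hormone enzymes held the member with the smallest unadjusted p. Cyp17a1 encodes the hydroxylase and lyase that leads from progestins to androgens. It read 4.54 (DeltaKlf6 1), 6.07 (DeltaKlf6 2) and 5.24 (DeltaKlf6 3) in the knockout group, against 6.56, 6.87 and 7.14 in wildtype 1, 2 and 3. All 3 DeltaKlf6 values lay below the lowest wildtype value. The means were 5.28 ± 0.76 and 6.86 ± 0.29 (SD, n = 3 each), a difference of -1.57 (SE 0.38, interval -2.46 to -0.69, limma adjusted p = 0.992), or 0.336 times the wildtype level. Its unadjusted limma p of 0.00355 ranked 34 among 17097 genes. The difference stayed between -1.97 and -1.20 under the alternatives, with adjusted p between 0.445 and 1.

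The other steroid hormone genes read close to the array medians. Cyp11a1, the side-chain cleavage enzyme that starts steroid synthesis, lay between 2.83 and 3.00 in DeltaKlf6 and between 2.67 and 3.51 in wildtype (difference -0.16), and its other probe set gave 0.15. The adrenal hydroxylase genes Cyp11b1 (3.12, 2.60 and 3.72 in DeltaKlf6, 2.42, 3.39 and 2.72 in wildtype) and Cyp21a1 (3.64, 3.31 and 4.22 in DeltaKlf6, 3.34, 3.60 and 3.25 in wildtype) overlapped between the groups. Their differences were 0.30 and 0.33, with the other Cyp21a1 probe set at -0.06. Cyp11b2 was dim, with a difference of 0.19. Over the 5 genes the median was 0.19, and Cyp17a1 was the 1 of them with a mean above the median of all genes.

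Of 12 listed genes of steroid hormone synthesis outside the P450 family 10 were measured, and 0 passed in either direction. Their median difference was 0.46, with 9 higher and 1 lower, beside a median of -0.01 over all genes. Non-overlapping groups were seen for 0 of the 10, beside 9.32% of all genes. Set against the wildtype mean, the list's median was 0.68, 0.78 and -0.26 in DeltaKlf6 1, 2 and 3. It was -0.34, 0.33 and -0.09 in wildtype 1, 2 and 3. Hsd3b3, a hydroxysteroid dehydrogenase gene, was at 6.72, 8.65 and 4.85 in DeltaKlf6 and at 3.68, 6.63 and 4.44 in wildtype (difference 1.82, SE 1.02). Nr5a1, the master regulator of adrenal steroid synthesis, differed by -0.39 and Tspo, a mitochondrial outer membrane protein, by 0.52. As a marker list for adrenal tissue, 4 of 5 genes were measured, with mean levels of 5.01 to 5.77 in DeltaKlf6 and 4.90 to 5.41 in wildtype. Of these Nr5a1 was at 3.16 to 3.66 in DeltaKlf6 and 3.63 to 4.01 in wildtype, and Hsd3b1 at 2.51 to 2.87 in DeltaKlf6 and 2.42 to 2.52 in wildtype. Star, the cholesterol carrier into mitochondria, was at most 5.18 in DeltaKlf6 and 5.10 in wildtype, with overlapping groups (difference 0.27, SE 0.36). Mrap, which brings the corticotropin receptor to the cell surface, had the highest values of the list, 11.74, 9.52 and 10.18 in DeltaKlf6 and 9.46, 9.50 and 10.40 in wildtype (difference 0.69, SE 0.55). The part of other tissue in the Cyp17a1 values was not tested.

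**Figure D2:**
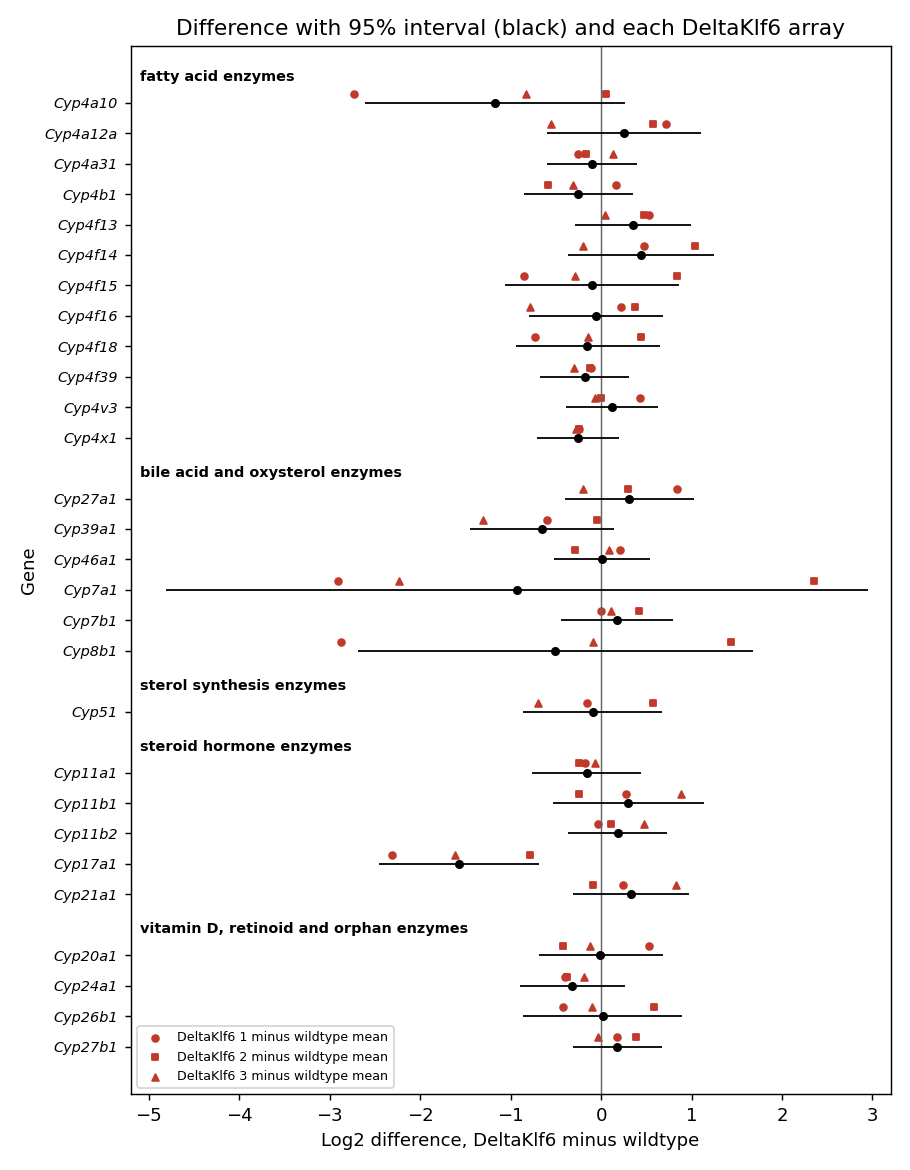
Log2 difference of DeltaKlf6 minus wildtype (horizontal axis) for each gene, with black points and lines for the limma estimate and its 95% interval and red symbols for each DeltaKlf6 library minus the wildtype mean. The interval excludes 0 for Cyp17a1 (-2.46 to -0.69), and it is widest for Cyp7a1 (-4.81 to 2.95).

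Among the fatty acid enzymes Cyp4a10 stood apart in its size of difference. Cyp4a10, an inducible fatty acid hydroxylase, read 7.99 (DeltaKlf6 1), 10.77 (DeltaKlf6 2) and 9.89 (DeltaKlf6 3), against 10.38, 10.83 and 10.95 in wildtype. The libraries DeltaKlf6 1 and 3 lay below all wildtype libraries and DeltaKlf6 2 lay among them. The means were 9.55 ± 1.42 and 10.72 ± 0.30 (SD, n = 3 each), a difference of -1.17 (SE 0.62, limma adjusted p = 0.992). Without DeltaKlf6 1 it was -0.39, and without DeltaKlf6 2 it was -1.78. The probe set is of a type that can match several transcripts, and Cyp4a10 has close relatives beside it on chromosome 4, so its signal may be shared.

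Its neighbour Cyp4a12a, the male-typical hydroxylase that makes a vasoactive eicosanoid from arachidonic acid, did not share this pattern of libraries. It read 9.60, 9.45 and 8.33 in DeltaKlf6 and 8.65, 9.27 and 8.72 in wildtype (difference 0.25, SE 0.37, interval -0.60 to 1.10). The library labelled DeltaKlf6 1, lowest for Cyp4a10, was thus highest for Cyp4a12a. On the same chromosome Cyp4a31 and Cyp4x1 were dim, and Cyp4b1, best known from lung, was at 7.11, 6.36 and 6.64 in DeltaKlf6 and 7.12, 7.02 and 6.71 in wildtype (difference -0.25). Cyp4x1 had non-overlapping groups, at 2.26, 2.26 and 2.23 in DeltaKlf6 and 2.62, 2.55 and 2.34 in wildtype, a difference of -0.25 near the level of the nonspecific controls.

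The Cyp4f genes, which inactivate leukotrienes and other eicosanoids, had differences between -0.18 and 0.44. Cyp4f14 was at 7.75, 8.31 and 7.08 in DeltaKlf6 and at 6.95, 7.68 and 7.19 in wildtype (difference 0.44, interval -0.37 to 1.25). That difference was 0.14 without DeltaKlf6 2, 0.28 without wildtype 1 and 0.75 without DeltaKlf6 3. Cyp4f13 was at 6.32, 6.26 and 5.82 in DeltaKlf6 and at 5.74, 6.21 and 5.39 in wildtype (difference 0.35). Both had their 2 highest values in DeltaKlf6 1 and 2, with the third DeltaKlf6 library inside the wildtype range. Cyp4f15 spread widely in DeltaKlf6 (7.10, 8.79 and 7.65) and little in wildtype (7.94, 8.21 and 7.68), with a difference of -0.10. Cyp4f16 was at 5.43, 5.58 and 4.42 in DeltaKlf6, while its wildtype values lay within 0.05 of each other (5.21, 5.18 and 5.23). Cyp4f18, the leukotriene hydroxylase of neutrophils (-0.15), and Cyp4f39, the mouse counterpart of a human skin ceramide enzyme (-0.18), were dim.

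Cyp4v3, the mouse counterpart of the human gene behind a crystalline retinal dystrophy, was read by a pair of probe sets that differed in size. The one with the higher mean gave 11.03, 10.61 and 10.54 in DeltaKlf6 and 10.73, 10.56 and 10.53 in wildtype (difference 0.12, interval -0.39 to 0.63). The other gave 8.32, 7.93 and 7.23 in DeltaKlf6 and 6.89, 7.37 and 7.16 in wildtype (difference 0.69, SE 0.31, limma adjusted p = 0.992). The brighter probe set is of the type that can match several transcripts. Over the 12 fatty acid enzymes 4 were higher and 8 lower, with a median of -0.10 and 0 past the threshold.

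Of 16 listed genes of fatty acid oxidation and Ppara signalling outside the P450 family 14 were measured, and 0 passed in either direction. Their median was -0.60, with 3 higher and 11 lower, and 5 (35.7%) had non-overlapping groups, all lower, beside 5.91% of all genes. Ppara was at 6.79, 7.60 and 7.93 in DeltaKlf6 and at 9.27, 8.98 and 8.90 in wildtype (difference -1.61, SE 0.31). The thioesterase gene Acot1 differed by -1.91 (SE 0.38) and Ehhadh, a peroxisomal oxidation enzyme, by -1.03 (SE 0.28). In contrast to Cyp4a10, all 3 had DeltaKlf6 2 below every wildtype library. The list was chosen with earlier results of these libraries known and is no independent evidence of its direction.

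Among the bile acid enzymes Cyp7a1 and Cyp8b1 spread widely between animals. Cyp7a1, the rate-limiting enzyme of the classical pathway, read 3.25 (DeltaKlf6 1), 8.50 (DeltaKlf6 2) and 3.92 (DeltaKlf6 3), against 2.83, 8.04 and 7.59 in wildtype 1, 2 and 3. DeltaKlf6 1, DeltaKlf6 3 and wildtype 1 were low, the other 3 livers were high, and the groups overlapped. The wildtype SD of 2.89 was the largest of 17097 genes and the DeltaKlf6 SD of 2.86 ranked 4. The means were 5.22 and 6.15, a difference of -0.93 (SE 1.68, interval -4.81 to 2.95, limma adjusted p = 0.992). It was -2.59 without wildtype 1, -2.57 without DeltaKlf6 2, 0.06 without DeltaKlf6 1 and 0.02 without wildtype 2.

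The other Cyp7a1 probe set did not show the same libraries as high. It read 3.24, 5.61 and 3.78 in DeltaKlf6 and 3.24, 3.46 and 3.28 in wildtype (difference 0.88, SE 0.54), so that DeltaKlf6 2 was high by both probe sets and wildtype 2 and 3 by 1 of them. Cyp8b1, whose product sets the share of cholic acid, read 5.35, 9.67 and 8.14 in DeltaKlf6 and 7.71, 8.82 and 8.15 in wildtype. DeltaKlf6 1 lay 2.88 below the wildtype mean and DeltaKlf6 2 lay 1.44 above it, and the DeltaKlf6 SD of 2.19 ranked 27 of 17097. Its difference was -0.51 (SE 0.95, interval -2.69 to 1.68), 0.68 without DeltaKlf6 1 and -1.48 without DeltaKlf6 2.

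**Figure D3:**
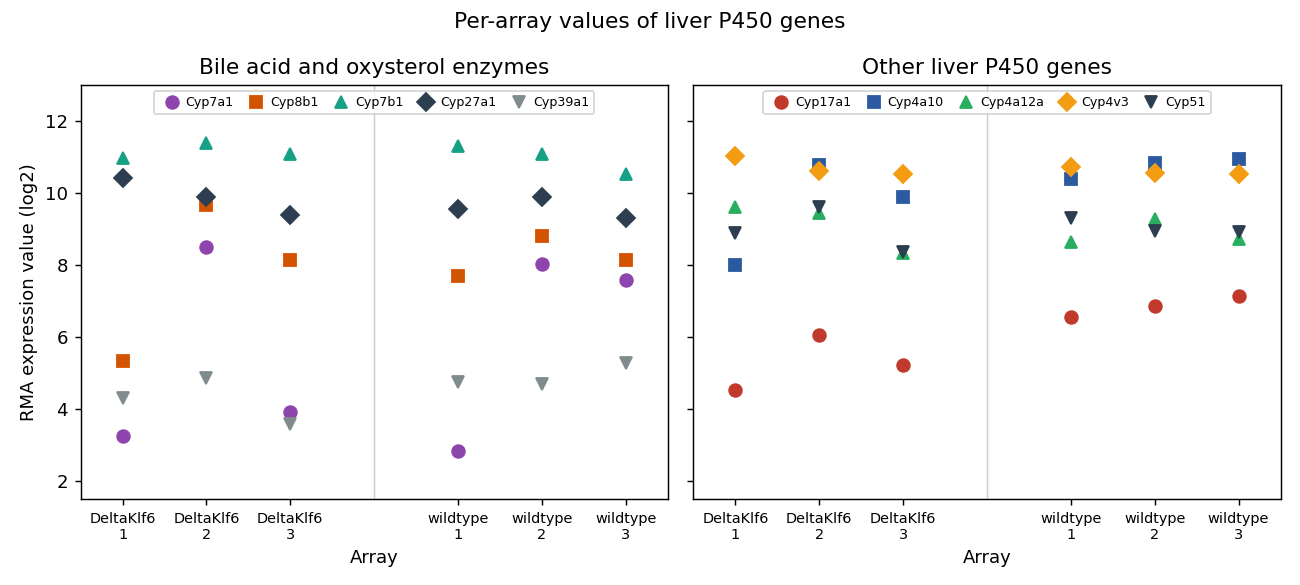
RMA expression value (log2, vertical axis) of 10 liver P450 genes in each array, DeltaKlf6 left of wildtype, with bile acid and oxysterol enzymes in the left panel. Cyp7a1 is near 3 in DeltaKlf6 1 (3.25) and wildtype 1 (2.83) and above 8 in DeltaKlf6 2 (8.50) and wildtype 2 (8.04). By its brightest probe set, Cyp7b1 stays between 10.52 and 11.39 in all 6.

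The enzymes of the alternative pathway spread less than Cyp7a1 in both groups and less than Cyp8b1 in DeltaKlf6. Cyp7b1, the oxysterol hydroxylase, read 10.97, 11.39 and 11.08 in DeltaKlf6 and 11.30, 11.09 and 10.52 in wildtype (difference 0.18, SE 0.27, interval -0.44 to 0.79), with 0.44 and 0.09 from its other probe sets. The one with 0.44 spread more, from 9.39 to 10.91, with an SD of 0.55 in DeltaKlf6 and 0.54 in wildtype. Cyp27a1, the mitochondrial sterol hydroxylase, read 10.43, 9.90 and 9.40 in DeltaKlf6 and 9.56, 9.90 and 9.32 in wildtype (difference 0.31, interval -0.40 to 1.03), with 0.05 left without DeltaKlf6 1. Cyp39a1, which hydroxylates the oxysterol made in brain, read 4.31, 4.86 and 3.60 in DeltaKlf6 and 4.77, 4.69 and 5.27 in wildtype. Its difference of -0.65 (SE 0.34, limma adjusted p = 0.992) was -0.96 without DeltaKlf6 2 and -0.33 without DeltaKlf6 3. Cyp46a1 was dim (difference 0.01). Over the 6 genes 3 were higher and 3 lower, with a median of -0.25.

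All 17 listed bile acid genes outside the P450 family were measured, and 0 passed in either direction (10 higher, 7 lower, median 0.07). Acox2, the side-chain oxidase, was at 9.68, 9.34 and 8.26 in DeltaKlf6 and at 8.39, 8.65 and 8.38 in wildtype (difference 0.62). Acot8, a peroxisomal thioesterase, differed by -0.42 and Nr1h4, the bile acid receptor, by -0.59. Nr1h4 read lowest in DeltaKlf6 1 (7.33), the library lowest for Cyp8b1. It was highest in wildtype 2 (9.10), whereas Cyp8b1 was highest in DeltaKlf6 2 (9.67). Acox2 had its highest value in DeltaKlf6 1. A link between these genes was not tested.

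Cyp51, the sterol demethylase of cholesterol synthesis, had lower means in DeltaKlf6 by all 3 of its probe sets, none past the test. The one with the highest mean read 8.90, 9.62 and 8.36 in DeltaKlf6 and 9.30, 8.95 and 8.92 in wildtype (difference -0.09, interval -0.86 to 0.67). The others gave -0.31 (SE 0.29) and -0.71 (SE 0.48). DeltaKlf6 2 was the highest and DeltaKlf6 3 the lowest of the 6 libraries by the chosen probe set. Of 17 listed sterol synthesis genes 15 were measured and 0 passed, with 8 higher, 7 lower and a median of 0.01. Lss, the enzyme that closes the sterol ring, differed by -0.98 (SE 0.51), the sterol isomerase gene Ebp by 0.55 and Fdps by 0.68.

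The vitamin D, retinoid and orphan enzymes showed small differences. Cyp26b1, which breaks down retinoic acid, read 4.54, 5.54 and 4.86 in DeltaKlf6 and 5.38, 4.25 and 5.25 in wildtype (difference 0.02, SE 0.38). The vitamin D breakdown gene Cyp24a1 read 2.75, 2.77 and 2.96 in DeltaKlf6 and 2.70, 3.38 and 3.37 in wildtype (difference -0.32), with -0.24 by its other probe set. Cyp24a1 narrowly missed the dim label, as it passed the array median only in wildtype 2 and 3 (median 3.33 in each). Its other probe set read 2.12 to 2.84. Cyp27b1 was dim, at 2.66, 2.86 and 2.44 in DeltaKlf6 and 2.60, 2.37 and 2.45 in wildtype (difference 0.18). Cyp20a1 was dim too, at 3.25, 2.30 and 2.60 in DeltaKlf6 and 2.97, 2.77 and 2.42 in wildtype (difference -0.01). The groups overlapped for all 4. Cyp4a14, Cyp19a1 and Cyp26c1 were not analysed here.

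The SD between livers of the same group had a median of 0.41 over the members, beside 0.33 over all genes. The SD was larger in DeltaKlf6 than in wildtype for 20 of 28 members (71.4%), beside 68.1% of all genes. With dim genes set aside it was larger for 70% of members, beside 72% of all genes. The library labelled DeltaKlf6 2 held the highest of the 6 values for 10 members, and wildtype 3 held the lowest for 7, DeltaKlf6 1 and DeltaKlf6 3 for 6 each. All 3 DeltaKlf6 libraries lay on the same side of the wildtype mean for 7 members (25%), beside 30.1% of all genes. They lay below it for 6 (21.4%, beside 17.7% of all genes), which were Cyp17a1, Cyp39a1, Cyp4f39, Cyp4x1, Cyp11a1 and Cyp24a1. They lay above it for Cyp4f13 (3.57%, beside 12.3% of all genes). Outside the wildtype range lay 18, 18 and 13 members in DeltaKlf6 1, 2 and 3, or 64.3%, 64.3% and 46.4%, beside 59.9%, 55.6% and 62.3% of all genes.

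**Figure D4:**
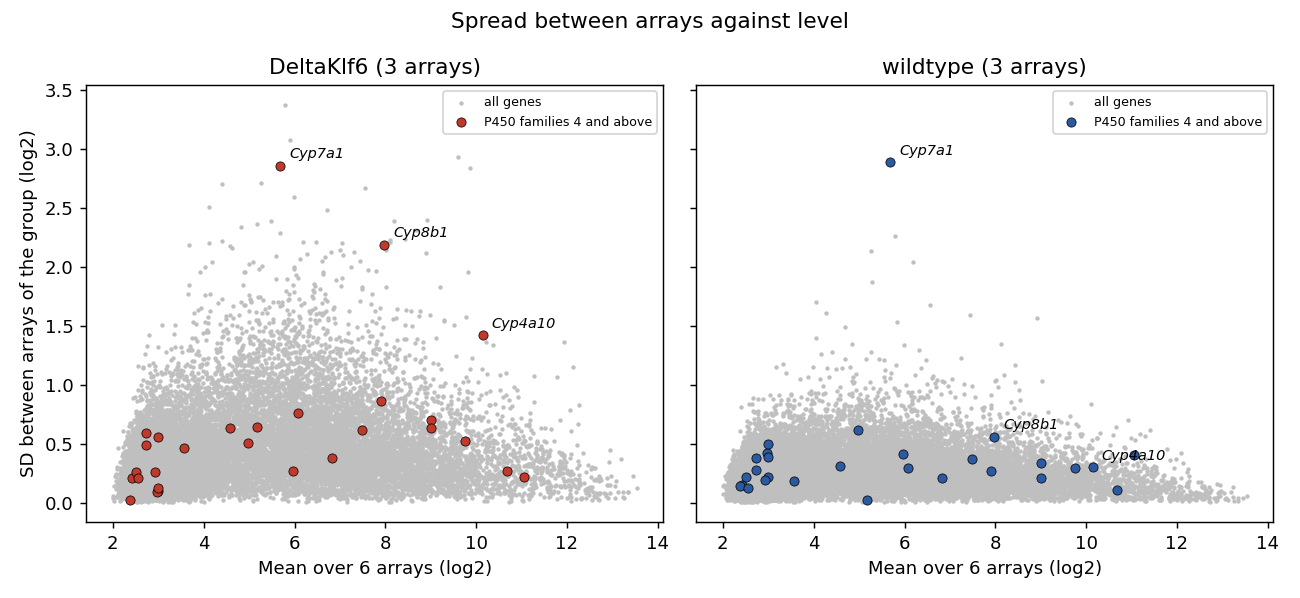
SD between the 3 arrays of a group (log2, vertical axis) against the mean over all 6 arrays (log2, horizontal axis), with DeltaKlf6 on the left and wildtype on the right, all genes in grey and the 28 P450 genes in colour. Cyp7a1 has an SD of 2.86 in DeltaKlf6 and 2.89 in wildtype, while Cyp8b1 has 2.19 in DeltaKlf6 and 0.56 in wildtype.

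The count of non-overlapping members rose with 1 library left out, as did the share of all genes (9.32% with all libraries). It was 7 without DeltaKlf6 2 (25% of members, beside 22.3% of all genes) and 8 without DeltaKlf6 3 (28.6%, beside 25.3%). It was 4 without wildtype 1 and 4 without wildtype 3 (14.3% each, beside 16.6% and 16.4%). Without DeltaKlf6 1 and without wildtype 2 it was 3 (10.7% each, beside 18.1% and 17.8%). Without DeltaKlf6 3 the members at an unadjusted p under 0.05 were Cyp17a1, Cyp4a12a and Cyp4f14, and without DeltaKlf6 2 they were Cyp17a1, Cyp39a1 and Cyp4a10. Limma again called 0 genes after adjustment in each of these fits.

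Genes that supply P450 enzymes with electrons and haem had 0 calls. Of 11 listed redox partners and haem enzymes 8 were measured, 7 higher and 1 lower with a median of 0.14. Hmox1, the haem-degrading enzyme, averaged 5.48 ± 1.06 in DeltaKlf6 and 4.74 ± 0.20 in wildtype (SD, n = 3 each), and its difference of 0.74 came with 1 high library, DeltaKlf6 1 at 6.69. Cyb5r3 differed by 0.27 and Cyb5b by -0.19. Of 9 growth hormone signalling genes, a pathway that sets sex-typical P450 expression in rodent liver, 4 were higher and 5 lower, with 0 past the threshold and a median of -0.16. Cish, a feedback inhibitor induced by Stat5, was at 4.82, 4.51 and 5.57 in DeltaKlf6 and 6.62, 6.97 and 6.00 in wildtype (difference -1.57, SE 0.35, limma adjusted p = 0.992), with no overlap between the groups. Socs2 differed by -1.59 (SE 1.05) and the receptor gene Ghr by 0.49.

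P450 families 1 to 3 had 38 genes with 21 higher, 17 lower and a median of 0.05. Of these 1 (2.63%) had non-overlapping groups, beside 9.32% of all genes. Hepatocyte markers (8 of 8 measured) had mean levels of 11.27, 11.18 and 10.57 in DeltaKlf6 1, 2 and 3 and 10.75 to 10.85 in wildtype. Kupffer cell markers (8 of 8) had mean levels of 7.56 to 8.34 in DeltaKlf6 and 7.38 to 7.71 in wildtype, and sinusoidal endothelial markers (7 of 7) 5.73 to 6.51 in DeltaKlf6 and 6.32 to 6.55 in wildtype. Stellate markers (7 of 7) were at 4.95 to 5.66 in DeltaKlf6 and 5.06 to 5.45 in wildtype, and cholangiocyte markers (5 of 6) at 3.18 to 3.60 in DeltaKlf6 and 2.97 to 3.62 in wildtype. Neutrophil (6 of 6), lymphocyte (5 of 6), erythroid (2 of 4) and adipocyte markers (3 of 5) had median differences of -0.20, -0.01, 0.30 and -0.13. In whole liver, fewer cells of a type and less RNA per cell cannot be told apart, and the part of cell composition in these results was not tested.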

How the data were processed

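Liver RNA of 6 mice was measured on one-channel Affymetrix arrays. The submitters' processing notes name Affymetrix Expression Console 1.2.1 and RMA, with which the authors made the deposited log2 values. Their range gave the log base. The authors' genome build is not given in the sources used here. Gene names are those of GEO's platform table: 28898 of 45141 had 1 gene, 551 several and 15692 none. All 28 members matched RefSeq by gene number. Groups and replicate numbers come from the sample titles.

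The 2 genotypes were compared by a two-sided limma fit (lmFit, then eBayes; limma 3.58.1, R 4.3.3, Benjamini-Hochberg over 17097 genes, threshold 0.05), and the calculation was tested on simulated data. RMA normalizes the arrays to each other at the probe level, which can reduce a shift shared by most genes, although the deposited values still differed in upper quartile between arrays. The number of animals, 3 per group, limits the precision. The members, gene lists, motifs and tests were chosen with earlier results of these data known. By the rule for named genes, all members are named; values in every array are given for the members of smallest unadjusted p and for a fixed set of well-known ones, and each pathway list gives its 3 genes of smallest unadjusted p. Alternatives covered probe set choice, dim genes, normalization, variance models, weights, the replicate number and each array left out. Protein sequences were not used here.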

Additional observations from a re-analysis of the deposited data

How the results depend on the processing

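Limma called 0 genes and 0 members under all 16 alternatives. The count of members with non-overlapping groups was 2 with all arrays (7.14%, beside 9.32% of all genes). Without the genes whose mean lay under the median of all genes (8549 genes and 16 members kept) it was 1 (6.25%, beside 9.8%). After median-centring it was 1 (3.57%, beside 8.75%). It was 3 to 8 with 1 array left out (10.7% to 28.6%, beside 16.4% to 25.3% of all genes). With 1 array left out the median difference ranged from -0.16 to 0.05 over all members, from -0.45 to 0.06 over bile acid and oxysterol enzymes, from -0.19 to 0.01 over fatty acid enzymes, from 0.02 to 0.29 over steroid hormone enzymes and from -0.09 to 0.17 over vitamin D, retinoid and orphan enzymes. With every probe set on its own the bile acid median was 0.09, since genes with several probe sets then count more than once. Without the genes whose mean lay under the median of all genes, the steroid hormone median was -1.57, since Cyp17a1 alone was left. The fatty acid median was then 0.03. Among members that kept their sign, leaving out 1 array gave 0.01 to 0.65 for Cyp4a12a, 0.15 to 0.57 for Cyp4f13, 0.05 to 0.57 for Cyp27a1, 0.02 to 0.58 for Cyp11b1, 0.08 to 0.53 for Cyp21a1 and -0.45 to -0.08 for Cyp4b1. Of 28 members 16 kept their sign under all alternatives in which they were tested and 12 did not, none of them called. Those with 1 array left out ranged from -0.57 to 0.27 for Cyp4f15, -0.28 to 0.30 for Cyp4f16, -0.44 to 0.15 for Cyp4f18, -0.03 to 0.21 for Cyp4v3, -0.10 to 0.15 for Cyp46a1, -2.59 to 0.06 for Cyp7a1, -0.05 to 0.34 for Cyp7b1, -1.48 to 0.68 for Cyp8b1, -0.42 to 0.21 for Cyp51, -0.36 to 0.06 for Cyp11a1, -0.27 to 0.20 for Cyp20a1 and -0.34 to 0.24 for Cyp26b1. With array weights Cyp4f15 was at 0.01, Cyp4f16 at 0.12, Cyp46a1 at -0.01, Cyp51 at 0.09 and Cyp20a1 at 0.02. Quantile-normalized again, Cyp46a1 was at -0.01, and median-centred, Cyp20a1 was at 0.00. The cause of these changes was not tested. Whether the replicate numbers pair the animals is not known here. Deviations of same-numbered arrays from their group means correlated at 0.00, 0.26 and 0.08 across genes. Those of differently numbered arrays correlated at -0.17 to 0.09, and 1 of 3 DeltaKlf6 arrays correlated best with its own number. So few arrays cannot settle the question. With the replicate block 0 genes were called, the members' median stayed at -0.08, and Cyp17a1 and Cyp4a10 had an unadjusted p under 0.05.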

Other observations

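Some genes of steroid and bile acid metabolism outside the P450 family, named after their values were seen, also read very differently in livers of the same group. Hsd3b5, a male-typical hydroxysteroid dehydrogenase gene of mouse liver, read 6.23 (DeltaKlf6 1), 9.78 (DeltaKlf6 2) and 3.03 (DeltaKlf6 3), against 3.84, 7.85 and 4.03 in wildtype 1, 2 and 3. DeltaKlf6 2 and wildtype 2 were the highest of their groups, as for Cyp7a1. Wildtype 3, however, was low for Hsd3b5 (4.03) and high for Cyp7a1 by its brighter probe set (7.59). Hsd3b2 read 3.58, 7.96 and 3.02 in DeltaKlf6 and 3.70, 5.33 and 2.81 in wildtype, with DeltaKlf6 2 and wildtype 2 again the highest of their groups. Nr0b2, a repressor of bile acid synthesis, read 9.14, 8.39 and 5.27 in DeltaKlf6 and 8.76, 7.44 and 5.60 in wildtype, and DeltaKlf6 3 and wildtype 3 were the lowest. Ch25h, a cholesterol hydroxylase outside the P450 family, read 6.57 in DeltaKlf6 1 and 2.72 to 3.88 in the other 5 libraries. DeltaKlf6 1 is the library with the lowest Cyp8b1 and the highest Klf6 values. None of these genes passed the limma test, with differences of 1.11, 0.90, 0.34 and 0.65 (SE 1.68, 1.24, 1.08 and 0.84).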
